A study of Mus musculus with 4 samples.

Results

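Class I molecules of the major histocompatibility complex (MHC) display peptides from inside a cell to CD8+ T cells. A heavy chain, encoded in mouse by the H2 genes, pairs with the light chain β2-microglobulin, the product of B2m. H2-K1 and H2-D1 encode classical heavy chains that nearly all nucleated cells carry, T cells included, whereas class Ib genes (the H2-Q, H2-T and H2-M groups) encode relatives with more specialised ligands. The 10 genes described here are 9 such heavy chain genes and B2m, of 24062 genes in the deposited counts. H2-Q10 was selected on its measured counts, which were lower in germ-free (GF) recipients than in SPF recipients, so its GF against SPF values are a description without a test. The other 9 were chosen by name as its relatives (H2-Q4, H2-Q5, H2-K1, H2-K2, H2-D1, H2-T23, H2-T24, H2-M3 and B2m).

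RNA came from gBT-I cells, CD8+ T cells whose transgenic receptor recognises the gB peptide of herpes simplex virus on the H2-K1 product. Spleen cells from gBT-I tg mice held specific pathogen free (SPF) were stimulated in vitro by gB peptide with LPS, received IL-1, and were injected intravenously into C57BL/6 recipients. The recipients were GF in one group and SPF in the other, with 2 libraries each, and gBT-I cells were sorted from spleen 7 days after transfer. All donors were transgenic SPF animals, so the groups differed only by the recipient as far as the labels say, and no label says whether replicates were separate or pooled mice. Total counts ran from 11544960 to 14431533 a library.

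Levels are given as CPM, the count relative to library size. Markers of CD8 T cells summed to 6755 and 5830 CPM in GF replicates 1 and 2 and to 7674 and 6019 CPM in SPF replicates 1 and 2. B cell markers summed to 72.4 and 27.0 CPM in GF and to 63.6 and 24.8 CPM in SPF. Both lists were higher in replicate 1 than in replicate 2 of each group. All 10 genes passed the filter on low counts, which kept 11271 genes. No gene of the 11271 passed edgeR's quasi-likelihood test of GF against SPF after Benjamini-Hochberg adjustment, in either direction, while 363 (3.22%) had an unadjusted p under 0.05.

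The heavy chain genes lie together in the MHC on chromosome 17 and B2m lies on chromosome 2 (mm10, GENCODE M21 positions). H2-Q10 spans chr17:35470089-35474563 on the plus strand, with 5 exons in its transcript of longest coding sequence. H2-K1 lies at chr17:33996017-34000347 on the minus strand and H2-D1 at chr17:35262730-35267499 on the plus strand. B2m is at chr2:122147686-122153083. H2-K2 is annotated as a transcribed pseudogene and H2-Q5 as a polymorphic pseudogene, a gene whose reading frame is open in some strains and closed in others. H2-Q4 has an opposite-strand gene, Gm11131, whose exons overlap its own, and because the library kit does not mark strand their reads cannot be told apart.

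H2-Q10 is known for a product that is secreted, in contrast to the membrane-bound classical chains. A difference from H2-D1 can be read in the fifth coding exon, which in the classical genes encodes the membrane-spanning segment. The coding part of this exon is shown for H2-Q10 (chr17:35473486-35473565, plus strand) and H2-D1 (chr17:35266187-35266303, plus strand), with capitals for the bases of H2-D1 that have no partner in H2-Q10.
H2-Q10: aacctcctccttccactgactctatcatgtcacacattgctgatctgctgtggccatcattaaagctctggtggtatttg
H2-D1: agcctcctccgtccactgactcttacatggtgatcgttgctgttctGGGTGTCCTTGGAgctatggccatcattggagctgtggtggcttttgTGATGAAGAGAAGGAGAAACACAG
In this alignment H2-Q10 lacked 13 bases inside the exon, a number that is not a multiple of a codon. Its coding sequence ended within the exon, leaving the last 24 bases of H2-D1 without a partner. Of the 80 aligned bases 63 were identical, against 89.6% over the whole coding sequences. The coding sequences of H2-Q4, H2-Q6 and H2-Q7 also ended in coding exon 5 (92, 92 and 107 bases of it). That of H2-Q5 ran to the end of its annotated transcript of 998 bases, so it does not show where the reading frame ends. An end in this exon is thus not particular to H2-Q10.

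Transcription of classical class I genes and B2m is known to use a few short promoter elements. Enhancer A binds NF-κB, the interferon-stimulated element binds interferon regulatory factors, and a CRE-like box and CCAAT boxes belong to the module on which the class I transactivator NLRC5 acts. Promoters of 7 of the 10 genes were matched by symbol in RefSeq (GRCm38.p6). The stretch from 190 bases before the start to 10 bases from it is shown for the secreted H2-Q10, its relative H2-Q4 and the classical H2-D1 and H2-K1 (the second of 2 starts that RefSeq lists), as these are the sequences in which the elements can be compared directly. Capitals mark matches, on either strand, to GGGGATT (enhancer A), TTTCACTTC (interferon element), TGACG (CRE) and CCAAT, letters chosen after the sequences were read. None of these matches overlaps another.
H2-Q10, chr17:35469899-35470098, plus strand: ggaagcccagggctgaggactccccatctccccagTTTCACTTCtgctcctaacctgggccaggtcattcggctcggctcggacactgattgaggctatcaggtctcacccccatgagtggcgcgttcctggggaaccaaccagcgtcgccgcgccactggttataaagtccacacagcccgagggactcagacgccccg
H2-Q4, chr17:35379427-35379626, plus strand: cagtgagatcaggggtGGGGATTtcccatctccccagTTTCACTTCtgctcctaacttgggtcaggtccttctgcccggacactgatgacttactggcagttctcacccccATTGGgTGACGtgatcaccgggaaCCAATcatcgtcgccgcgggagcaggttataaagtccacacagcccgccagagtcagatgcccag
H2-D1, chr17:35262904-35263103, plus strand: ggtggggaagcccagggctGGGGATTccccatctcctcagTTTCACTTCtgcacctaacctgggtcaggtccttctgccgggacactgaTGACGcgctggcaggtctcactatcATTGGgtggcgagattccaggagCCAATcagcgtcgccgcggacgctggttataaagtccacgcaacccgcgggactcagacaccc
H2-K1, chr17:34000324-34000523, minus strand: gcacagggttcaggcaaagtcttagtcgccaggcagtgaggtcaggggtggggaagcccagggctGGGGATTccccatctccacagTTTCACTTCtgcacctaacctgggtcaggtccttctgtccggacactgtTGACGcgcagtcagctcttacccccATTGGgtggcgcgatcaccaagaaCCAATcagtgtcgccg
H2-D1, H2-K1 and H2-Q4 each held matches to all 4 strings, with 2 CCAAT boxes apiece. The CRE match of H2-Q4 in this window lay after its first CCAAT box, whereas those of H2-D1 and H2-K1 lay before theirs. After the letters CACTGA, H2-D1 reads TGACG and H2-Q4 reads TGACT, so H2-Q4 lacked the CRE letters at the place of the H2-D1 box. The H2-Q10 window held the interferon element alone. The windows were nonetheless close relatives, since H2-Q10 and H2-D1 had 254 identical bases of 291 aligned (87.3%) over the 300 bases from RefSeq. Counted from 1 at the 5′ end of each H2-D1 element as written in the sequence above, and with the H2-D1 base first, H2-Q10 differed by G2A and T6C in enhancer A. It differed by G2T, A3G and C4A in the CRE box, by G5A and a gap of 1 base in the first CCAAT box, and by T5C in the second, while the interferon element was identical.

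Outside these 4, H2-M3 held the interferon element, the CRE and 3 CCAAT matches, B2m 2 CRE matches and 1 CCAAT, and H2-T23 1 CCAAT only. Over all 32851 RefSeq promoters of this length, 3.10% held the enhancer A letters and 0.505% the interferon letters. CRE letters were held by 20.8% and CCAAT by 37.4%, so single matches to these short strings are common. A match is a string of letters and not a measured site, and an absent match says only that these letters are not in this window.

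Class I genes resemble one another, so reads of one gene can fit another. Windows of 50, 75 and 100 bases were taken along 1 transcript a gene and looked for as exact matches in all GENCODE M21 transcripts of other genes. H2-Q10 was well separated, with 92.0% of its 50-base windows found in no other gene, and 97.9% at 100 bases. H2-M3 (99.4%) and B2m (100%) were nearly or wholly unique at 50 bases, H2-T24 reached 96.8%, H2-K1 91.2%, H2-K2 89.1% and H2-D1 85.7%. The lowest values were those of H2-T23 at 70.2%, H2-Q4 at 60.8% and H2-Q5 at 59.9%. The H2-Q5 transcript used was coding throughout, so its share covers no untranslated part. How reads with several matches were counted is not given in the sources used here.

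**Figure D1:**
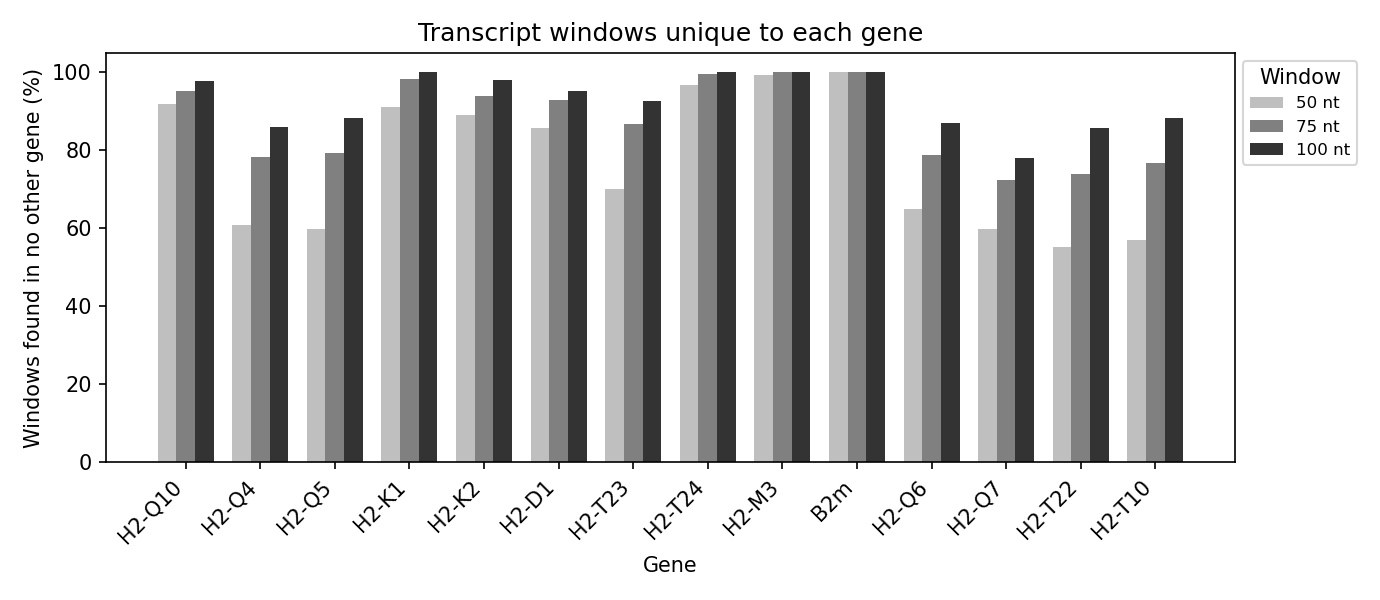
Share of transcript windows found in no other GENCODE M21 gene, in percent, for the 10 genes and 4 further class I rows, at window lengths of 50, 75 and 100 nt (light to dark bars). H2-Q4 and H2-Q5 lie near 60% at 50 nt, while H2-Q10 and H2-K1 lie above 90%.

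Among the genes compared, the closest coding relative of H2-Q5 was H2-Q7, at 97.0% identity, and H2-Q7 shared 26.4% of the 50-base windows of H2-Q5. H2-Q6 and H2-Q7, which are known for the Qa-2 antigens, were listed at 0 counts in all 4 libraries, although 65.03% and 59.8% of their windows were unique. H2-Q9 was also listed at 0, and H2-Q8 had 0 and 1 counts in GF and 1 and 2 counts in SPF. H2-T22, which encodes a ligand of γδ T cells and is 96.9% identical to H2-T10, had 13 and 9 counts in GF and 7 and 15 counts in SPF. A row at or near 0 here is a property of the deposited table and was not read as absence of the transcript.

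H2-Q10 had 33.6 and 39.6 CPM in GF replicates 1 and 2, against 145.0 and 84.2 CPM in SPF replicates 1 and 2 (492 and 554 counts against 1661 and 1193). The GF libraries were both lower than either SPF library, with the lower SPF value 2.13 times the higher GF value. The means were 36.6 ± 4.3 CPM in GF and 114.6 ± 43.0 CPM in SPF (SD, n = 2 each). The fitted log2 fold change was -1.65 (SE 0.32). SPF replicate 1 was the high library, and without it the log2 fold change was -1.20 (SE 0.30). Within replicate numbers, GF minus SPF on the log2 scale was -2.11 for number 1 and -1.09 for number 2. Over the 14 other settings tried it ranged from -1.99 to -1.20. These are bulk libraries, in which fewer cells that transcribe a gene and less RNA in each cell cannot be told apart.

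H2-Q10 is best known as a product of the liver. Of 14 hepatocyte markers, 10 were at 0 in all 4 libraries, among them Alb, Apoa1, Apob and Ttr. The list summed to 1.41 and 0.347 CPM in GF and to 0.866 and 0.499 CPM in SPF, far under the level of H2-Q10. Which cells the H2-Q10 counts came from was not tested.

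**Figure D2:**
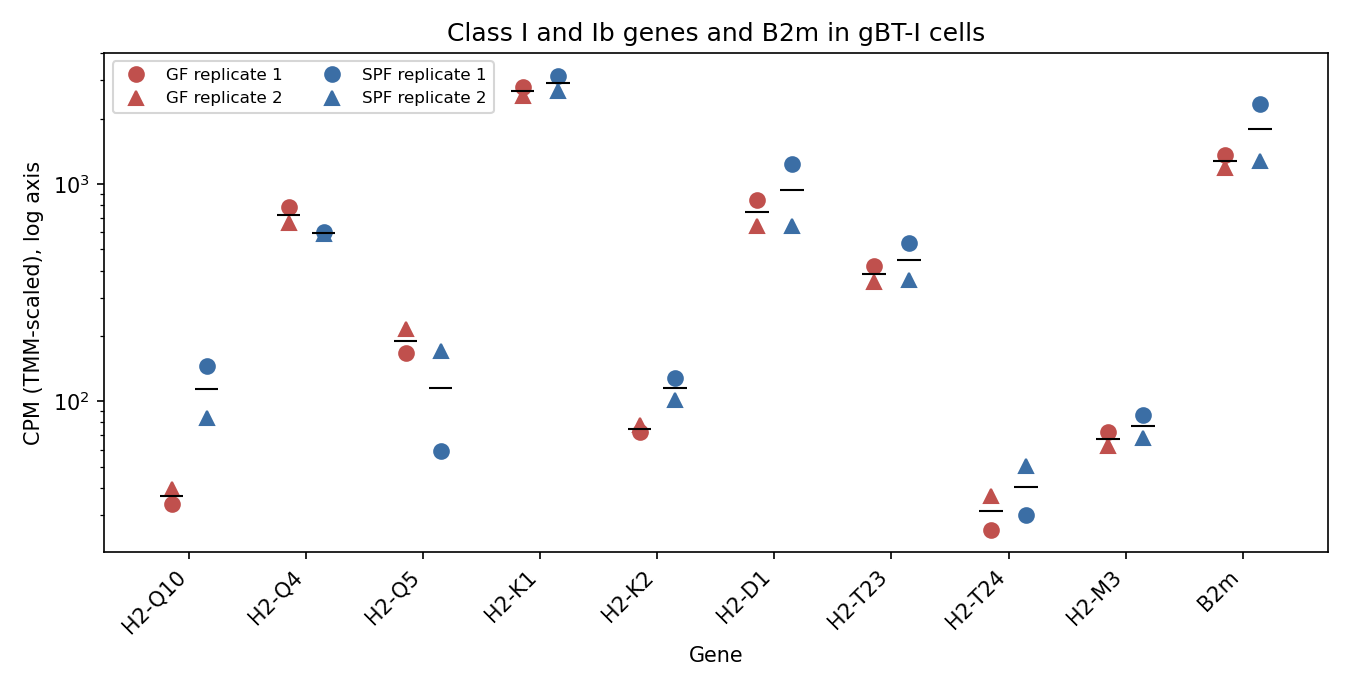
TMM-scaled CPM of the 10 genes in each library on a log axis, with GF (red) left of SPF (blue), circles for replicate 1, triangles for replicate 2 and black bars for group means (n = 2 each). The groups stand apart for H2-Q10 (33.6 and 39.6 against 145.0 and 84.2 CPM), H2-K2 and H2-Q4, and overlap for the other genes.

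Among the other 9 genes, 0 passed edgeR's quasi-likelihood test over all genes in either direction (0% of all tested genes passed). DESeq2 and edgeR's exact test called 0.071% of all tested genes higher and 0.00887% lower, limma-voom called none, and the 3 tools called 0 of the 9. Of the 9, 1 (H2-K2) had an unadjusted p under 0.05. Both GF libraries lay above both SPF libraries for 1 of the 9, H2-Q4, as for 16.8% of all tested genes. They lay below for 1, H2-K2, as for 16.4%. The log2 fold change was above 0 for 2 of the 9 and below 0 for 7, with a median of -0.22 beside -0.004 over all tested genes. With 2 libraries against 2, an exact two-sided permutation test cannot give a p under 0.333.

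H2-Q4, the gene of the class Ib chain Qb-1, had 781.0 and 658.4 CPM in GF, against 600.0 and 586.1 CPM in SPF. The SPF libraries were alike and the GF libraries both higher, by a log2 fold change of 0.28 (SE 0.22, edgeR adjusted p = 0.86). H2-Q5 had 166.1 and 214.9 CPM in GF, against 59.0 and 170.7 CPM in SPF. SPF replicate 1 was the low library and the groups overlapped, with a log2 fold change of 0.73 (SE 0.51, edgeR adjusted p = 0.86). Without SPF replicate 2, where the remaining SPF library is assumed to vary like the GF pair, H2-Q5 was called higher in GF by edgeR (log2 fold change of 1.68, SE 0.34, adjusted p = 8.2e-05), in a fit that called 6.77% of all tested genes higher and 4.7% lower. Without SPF replicate 1 its log2 fold change was 0.16.

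Where reads of near-identical genes are split among the rows summed, their sum is not affected by that split. Reads left uncounted, or shared with genes outside the sum, can still affect it. H2-Q4 shared 16.1% of its 50-base windows with Gm11131, which is not an H2-Q row. All H2-Q rows together had 981.2 and 913.1 CPM in GF, against 804.4 and 841.3 CPM in SPF. The sum had a log2 fold change of 0.20 (SE 0.22, edgeR adjusted p = 0.86), with GF values above SPF values, opposite to H2-Q10. Without H2-Q10 the remaining rows had a log2 fold change of 0.36 (SE 0.23, edgeR adjusted p = 0.86).

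The make-up of the H2-Q counts is given as a description, since H2-Q10 was selected on these counts. Its intervals cover counting error within each library and compare no groups. H2-Q10 made up 3.42% (95% Wilson interval 3.14 to 3.73) and 4.34% (4.0 to 4.71) of H2-Q counts in GF, against 18.0% (17.3 to 18.8) and 10.01% (9.49 to 10.56) in SPF. H2-Q4 made up 79.6% and 72.1% in GF, against 74.6% and 69.7% in SPF. H2-Q5 made up 16.9% and 23.5% in GF, against 7.34% and 20.3% in SPF. SPF replicate 1 held more H2-Q10 than H2-Q5 counts, at 0.407 counts of H2-Q5 for each of H2-Q10, while the ratio was 4.95 and 5.42 in GF and 2.03 in SPF replicate 2.

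**Figure D3:**
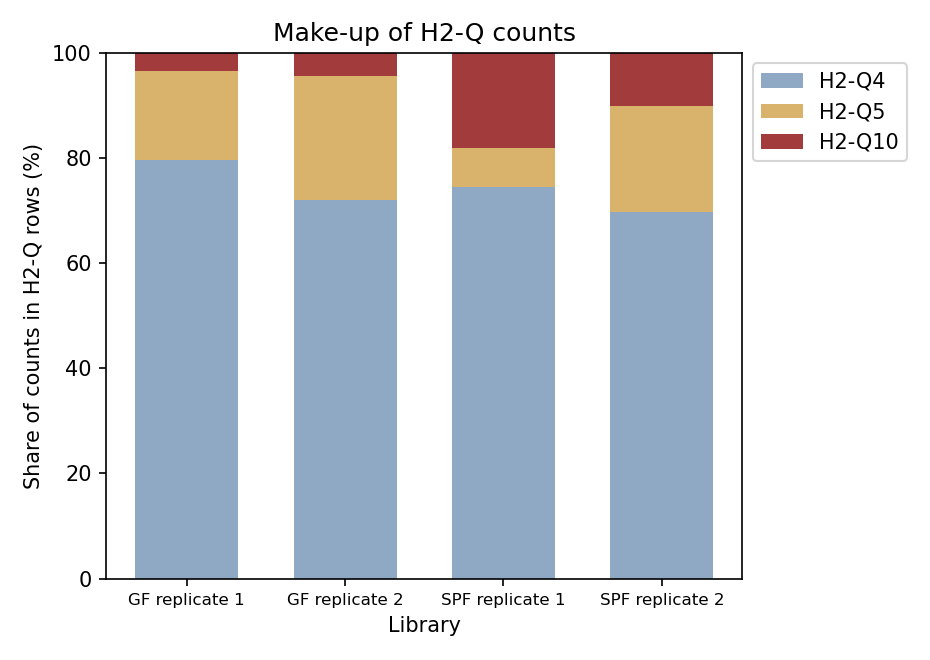
Share of the counts of all H2-Q rows taken by H2-Q4, H2-Q5 and H2-Q10 in each library, in percent, with the GF libraries left of the SPF libraries. H2-Q10 takes 3.42% and 4.34% in GF and 18.0% and 10.01% in SPF.

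H2-K1, the gene of the classical chain that presents the gBT-I peptide, held the largest share of class I counts. It made up 52.7% and 53.9% of all class I and Ib heavy chain counts in GF and 51.9% and 55.5% in SPF. Its level was 2793 and 2535 CPM in GF, against 3149 and 2672 CPM in SPF. The groups overlapped, with a log2 fold change of -0.13 (SE 0.25, edgeR adjusted p = 0.90), and the sign turned to 0.04 with transcript length trends removed.

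H2-K2, the pseudogene beside H2-K1, had 72.0 and 77.7 CPM in GF, against 128.4 and 101.8 CPM in SPF. The GF libraries were alike and both lay under the SPF libraries. The log2 fold change of -0.62 (SE 0.22, unadjusted p = 0.035) did not pass edgeR's test over all genes (adjusted p = 0.86), and it ranged from -0.79 to -0.43 over the other settings. After H2-Q10 it was the only gene of the 10 with both GF libraries below both SPF libraries.

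H2-D1, the other classical gene, had 841.9 and 642.8 CPM in GF, against 1240 and 637.6 CPM in SPF. The libraries numbered 1 were the higher ones in each group. Its log2 fold change was -0.34 (SE 0.38, edgeR adjusted p = 0.86), and without SPF replicate 1 it was 0.22. B2m likewise was higher in replicate 1 of each group, with 1358 and 1182 CPM in GF against 2323 and 1269 CPM in SPF. SPF replicate 1 stood above the other 3 libraries, and the log2 fold change of -0.50 (SE 0.36, edgeR adjusted p = 0.86) was 0.002 without it. With all libraries kept and transcript length trends removed, the log2 fold change of B2m was -0.095.

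Heavy chain counts were 3.90 and 3.98 times the B2m count in GF, against 2.61 and 3.79 times in SPF. SPF replicate 1 was again the library apart, while the other 3 lay between 3.79 and 3.98. Summed over all class I and Ib heavy chain rows, the level was 5297 and 4704 CPM in GF, against 6070 and 4814 CPM in SPF. The groups overlapped, with a log2 fold change of -0.12 (SE 0.28, edgeR adjusted p = 0.92) that was 0.06 without SPF replicate 1.

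Of the class Ib genes outside the H2-Q group, H2-T23 encodes Qa-1, the ligand of the CD94 and NKG2A receptor pair. It had 418.3 and 352.6 CPM in GF, against 535.0 and 361.2 CPM in SPF. Its libraries numbered 1 were higher in each group, and the log2 fold change of -0.22 (SE 0.28, edgeR adjusted p = 0.87) was 0.09 without SPF replicate 1. With transcript length trends removed the log2 fold change of H2-T23 was -0.0006. The sum of the H2-T rows had a log2 fold change of -0.19 (SE 0.25, edgeR adjusted p = 0.87), which was 0.03 without SPF replicate 1.

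H2-M3 encodes a chain that presents peptides with a formylated first residue, as bacteria and mitochondria make them. It had 72.0 and 62.2 CPM in GF, against 86.7 and 67.6 CPM in SPF. The groups overlapped, with a log2 fold change of -0.20 (SE 0.23, edgeR adjusted p = 0.86) that was 0.01 with transcript length trends removed. It took 1.36% and 1.32% of class I counts in GF and 1.43% and 1.41% in SPF.

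H2-T24 had 25.7 and 36.7 CPM in GF, against 29.9 and 50.7 CPM in SPF. Unlike H2-T23 beside it, it was higher in the libraries numbered 2 of each group. Its log2 fold change was -0.37 (SE 0.35, edgeR adjusted p = 0.86) and 0.05 without SPF replicate 2.

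The libraries were also compared by replicate number. H2-Q4, H2-K1, H2-D1, H2-T23, H2-M3 and B2m were lower in replicate 2 than in replicate 1 in both groups, 6 of 10 where 40.4% of all tested genes were. H2-Q5 and H2-T24 were higher in replicate 2 in both groups, 2 of 10 where 38.8% were. Together these are 8 of 10, near the sum of both background shares, so a move with replicate number did not set these genes apart. H2-Q10 and H2-K2 differed in sign between the groups. B cell and CD8 T cell markers, given above, were also higher in replicate 1. So were the NK cell and the macrophage and monocyte lists, whose most abundant genes were Gzma and Ccr2. The dendritic cell and CD4 T cell lists were higher in replicate 2 of each group. All these cell types carry class I, and the part of such cells in the class I values was not tested.

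**Figure D4:**
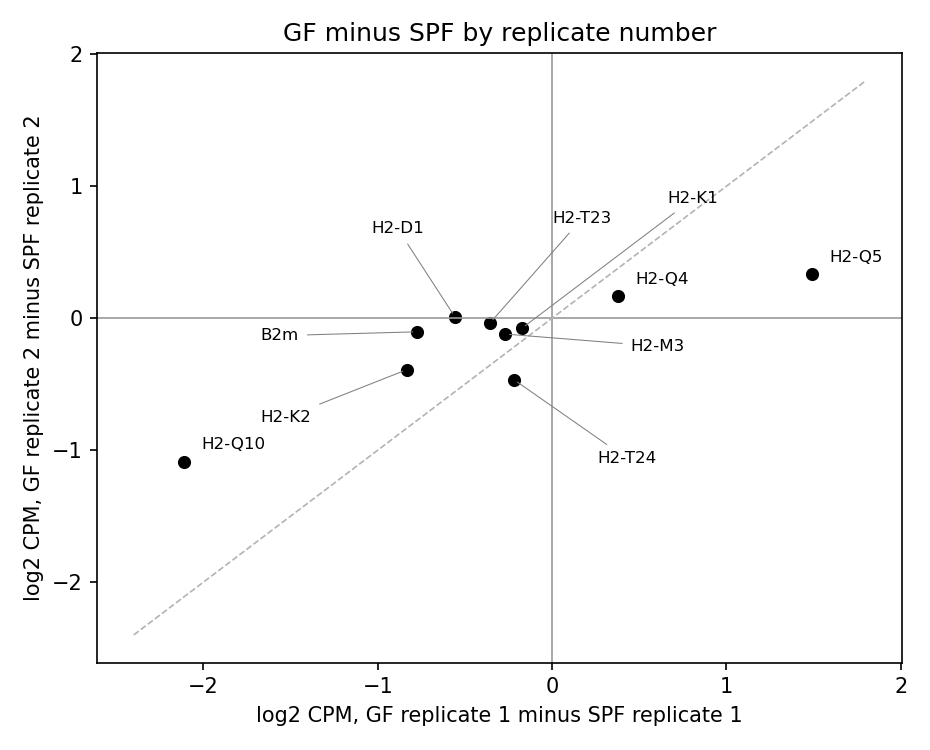
Log2 CPM of GF minus SPF within replicate number 1 (x axis) and within replicate number 2 (y axis) for the 10 genes, with a dashed line of equality. H2-Q10 lies lowest in both (-2.11 and -1.09), H2-Q5 highest in both (1.49 and 0.33), and most of the others are farther from 0 for number 1 than for number 2.

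Levels of different genes were compared per kb of transcript. H2-K1 and B2m led in every library, at 1725 and 1566 CPM per kb for H2-K1 in GF and 1945 and 1650 CPM per kb in SPF. B2m had 1579 and 1374 CPM per kb in GF and 2701 and 1476 CPM per kb in SPF, so it led in SPF replicate 1 and H2-K1 led in the other 3. Then came H2-Q4 at 401.4 ± 48.4, H2-D1 at 353.2 ± 67.0 and H2-T23 at 261.8 ± 31.5 CPM per kb in GF, against 330.8 ± 5.5, 446.6 ± 202.6 and 304.4 ± 83.5 CPM per kb in SPF (SD, n = 2 each). These 3 changed places in SPF replicate 1, where H2-D1 came first and H2-Q4 last, and the means of H2-Q4 and H2-D1 differed by less than the spread of H2-D1 in each group.

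H2-Q5 followed at 190.9 ± 34.5 CPM per kb in GF and 115.1 ± 79.1 CPM per kb in SPF. Its annotated transcript of 998 bases is coding throughout, while those of the protein-coding genes include untranslated parts. The level per kb of H2-Q5 may thus be overstated. H2-K2 had 47.8 ± 2.6 in GF and 73.5 ± 12.01 CPM per kb in SPF, beside H2-M3 at 46.7 ± 4.8 and 53.7 ± 9.4 CPM per kb. H2-Q10 had 18.4 ± 2.1 CPM per kb in GF and 57.6 ± 21.6 CPM per kb in SPF. It ranked ninth of the 10 in both GF libraries and in SPF replicate 2, and stood above H2-M3 and H2-Q5 in SPF replicate 1. H2-T24 was the lowest in each library, at 14.3 ± 3.5 in GF and 18.5 ± 6.7 CPM per kb in SPF.

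Patterns most like that of H2-Q10 were sought by the root mean square difference of centred log2 CPM over the 4 libraries, among 11261 other tested genes. The nearest were Cpa3 (0.14), which encodes a carboxypeptidase of mast cells, C330018D20Rik (0.19), Mansc4 (0.21), Fcer1g (0.23), the gene of the Fc receptor γ chain, and 4930417O13Rik (0.23). Cpa3 had 0.89 and 1.00 CPM in GF, against 3.49 and 1.91 CPM in SPF, from 13 and 14 counts against 40 and 27. Fcer1g had 3.21 and 4.08 CPM in GF, against 11.96 and 5.86 CPM in SPF. Of these, 2 genes lay within 0.2 of H2-Q10. Cpa3 rests on few counts, and no test was made of these likenesses.

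The wider class I pathway was described through 7 lists. In none of them did a gene pass edgeR's test over all genes in either direction (0% of all tested genes passed), and 1 gene of the lists, H2-Ob, had an unadjusted p under 0.05. DESeq2, limma-voom and the exact test also called 0 genes of each list. Groups that do not overlap are common in this table, at 33.2% of all tested genes. Lists are given by the median of their tested genes, beside -0.004 over all tested genes.

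Of 11 peptide loading and endoplasmic reticulum folding genes, 6 had a log2 fold change above 0 and 5 below, with a median of 0.00. The peptide transporter genes had higher values in GF, with 425.9 and 402.0 CPM for Tap1 in GF against 286.6 and 334.5 CPM in SPF, and 340.0 and 346.5 CPM for Tap2 in GF against 291.0 and 267.9 CPM in SPF. The groups did not overlap for either transporter, and their log2 fold changes were 0.41 (SE 0.21) and 0.30 (SE 0.20). The chaperone gene Calr, which holds the heavy chain for loading, had 331.3 and 353.2 CPM in GF, against 489.7 and 410.2 CPM in SPF. Pdia3, its partner oxidoreductase, had 310.3 and 299.5 CPM in GF, against 414.8 and 333.2 CPM in SPF. Calr and Pdia3 thus lay on the other side from the transporters, with both GF libraries below both SPF libraries. Without SPF replicate 1 their log2 fold changes were -0.26 for Calr and -0.13 for Pdia3, against -0.39 and -0.29 with it. Tapbp (tapasin), which bridges transporter and heavy chain, overlapped at 420.0 and 363.6 CPM in GF against 558.3 and 391.1 CPM in SPF.

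Of 11 peptide supply genes, 3 had a log2 fold change above 0 and 8 below, with a median of -0.17. The immunoproteasome subunit gene Psmb10 had 158.0 and 128.0 CPM in GF, against 312.4 and 151.7 CPM in SPF, and Psmb9 had 130.1 and 97.4 CPM in GF, against 191.1 and 101.2 CPM in SPF. The proteasome activator gene Psme2 had 208.3 and 165.6 CPM in GF, against 363.2 and 201.5 CPM in SPF, and its partner Psme1 had 309.3 and 234.5 CPM in GF, against 476.5 and 265.3 CPM in SPF. In all 4 genes the groups overlapped and SPF replicate 1 was the high library, as for B2m. Without SPF replicate 2 the log2 fold changes were -1.13 for Psmb10 and -0.96 for Psme2. Without SPF replicate 1 the values of Psmb10 and Psme2 were -0.08 and -0.11.

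Of 18 tested genes of class I transcription, 7 had a log2 fold change above 0 and 11 below, with a median of -0.06. Nlrc5, the class I transactivator gene, had 340.3 and 481.1 CPM in GF, against 191.4 and 370.5 CPM in SPF. SPF replicate 1 was the low library and the groups overlapped, with a log2 fold change of 0.55 (SE 0.39). Without SPF replicate 2 the log2 fold change of Nlrc5 was 1.10, and without SPF replicate 1 it was 0.15. Stat2, named here outside the rule for its value without SPF replicate 2, had a log2 fold change of 1.02 there, against 0.46 with all libraries. The NF-κB gene Nfkb1 had 359.5 and 433.5 CPM in GF, against 259.5 and 348.9 CPM in SPF, whereas its relative Relb had 41.6 and 39.6 CPM in GF, against 59.1 and 43.8 CPM in SPF. Nfya, a subunit of the CCAAT-binding factor, had 52.8 and 85.6 CPM in GF, against 86.2 and 91.7 CPM in SPF. Their groups did not overlap, and their log2 fold changes were 0.38 (SE 0.25), -0.34 (SE 0.24) and -0.36 (SE 0.29). Single libraries carried much of these values, which were 0.19 for Nfkb1 and -0.11 for Relb without SPF replicate 1, and -0.06 for Nfya without GF replicate 1.

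Among receptors of class I, 2 of 12 tested genes had a log2 fold change above 0 and 10 below, with a median of -0.26. Cd8a and Cd8b1 encode the co-receptor chains that bind class I. Cd8a had 990.8 and 939.7 CPM in GF, against 931.3 and 789.8 CPM in SPF, and Cd8b1 had 827.1 and 661.2 CPM in GF, against 1142 and 711.8 CPM in SPF. Klrc1, the gene of NKG2A, which with CD94 binds the H2-T23 product, had 288.5 and 293.7 CPM in GF, against 540.3 and 339.1 CPM in SPF. Klrc1 was lower in each GF library than in either SPF library (log2 fold change of -0.59, SE 0.29), and its value was -0.90 without SPF replicate 2. Without SPF replicate 1 the log2 fold change of Klrc1 was -0.22. Cd160 had a log2 fold change of -0.32 (SE 0.20) and Klrk1, the gene of NKG2D, one of -0.26 (SE 0.23). Cd244, whose product is known to bind CD48 and not class I, had 0.86 (SE 0.41).

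Class I-like genes outside the MHC numbered 5 tested of 18, with a median of 0.22. Mr1, which presents vitamin B metabolites of microbes, had 29.0 and 25.2 CPM in GF, against 15.6 and 22.7 CPM in SPF. Fcgrt, the heavy chain gene of the neonatal Fc receptor and another partner of B2m, had 42.2 and 41.7 CPM in GF, against 78.8 and 46.5 CPM in SPF. The groups did not overlap for either gene, with log2 fold changes of 0.50 (SE 0.28) and -0.58 (SE 0.30). Without SPF replicate 2 the log2 fold change of Fcgrt was -0.92. Without SPF replicate 1 the log2 fold changes were 0.26 for Mr1 and -0.15 for Fcgrt. The NKG2D ligand genes Ulbp1 and H60b were low in SPF replicate 1, at 10 and 6 counts. Their log2 fold changes were 0.22 (SE 1.05) and 0.26 (SE 0.83). That of Ulbp1 was 2.82 without SPF replicate 2 and -0.64 without SPF replicate 1.

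Of 8 tested class II and class II loading genes, 7 had a log2 fold change above 0 and 1 below, with a median of 0.21. Cd74, the invariant chain of class II, had 33.2 and 1.79 CPM in GF and 21.999 and 1.34 CPM in SPF, which is the order of the B cell markers. Its log2 fold change was 0.59 (SE 1.56), and without SPF replicate 1 edgeR called it at 3.70 (adjusted p = 2.7e-07), together with H2-Aa and H2-Eb1, where 0.129% of all tested genes were called higher and 0.0173% lower. H2-DMa, a loading chaperone chain, had 36.3 and 19.6 CPM in GF and 32.1 and 16.3 CPM in SPF. H2-Oa and H2-Ob encode the chains of the chaperone's inhibitor, and they lay on opposite sides, at 0.77 (SE 0.43) and -0.66 (SE 0.25, unadjusted p = 0.044). Without GF replicate 1 the log2 fold change of H2-Oa was 0.17.

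Of the other class I and Ib rows, 26 of 37 listed names were in the table and 14 of these were at 0 in all libraries. The 4 tested had a median of -0.20. H2-T10 had 88.0 and 81.7 CPM in GF, against 91.9 and 77.9 CPM in SPF, a log2 fold change of -0.0002 (SE 0.21). H2-L, a gene that C57BL/6 mice are known to lack, was listed with 21 and 11 counts in GF and 22 and 11 counts in SPF. Gm11127, a class I-like gene of the H2-T region, had 30 and 7 counts in GF and 29 and 21 counts in SPF.

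**Figure D5:**
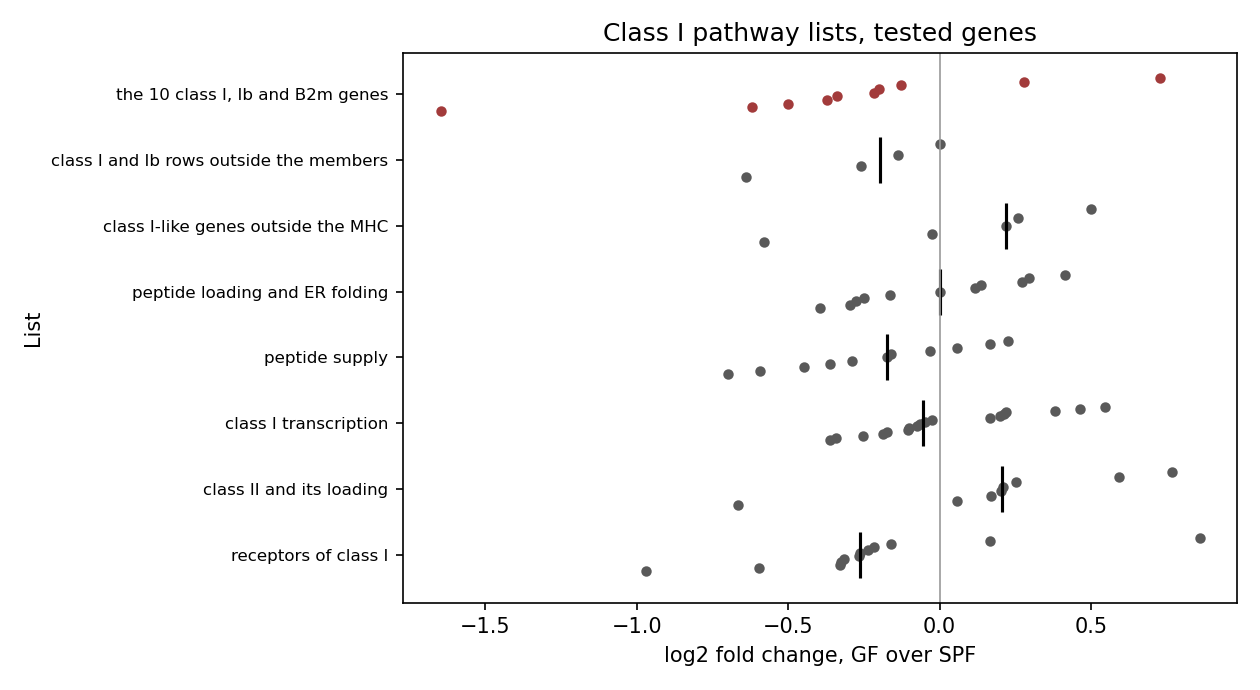
Log2 fold changes (GF over SPF, edgeR) of the 10 genes (red, top row) and of the tested genes of the 7 class I pathway lists (grey), with a black bar at the median of each list. List medians lie between -0.26 and 0.22, and H2-Q10, at -1.65, was selected for its low GF values, which fixed its place as the lowest point.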

How the data were processed

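Whole-number read counts for each gene symbol were deposited by the authors without normalization, 1 column a sample, matched here by column names that the labels give. The submitters' processing notes name CASAVA, TopHat, Picard, featureCounts, Subread and edgeR, with mm10 as build. How they were set, and which annotation was counted, is not stated there.

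The deposited counts were tested over the whole table with edgeR 4.0.16 in R 4.3.3, using TMM scaling, filterByExpr and the quasi-likelihood F test with group as the single term. The p-values, two-sided, were adjusted by Benjamini-Hochberg over 11271 genes, at a threshold of 0.05. Standard errors were derived from the fold change and its F value. CPM uses TMM-scaled library sizes, except in marker sums. DESeq2 1.42.0 and limma-voom (limma 3.58.1) were among the alternatives, and the fits were tested on simulated counts. The simulation took its spread from a fit with replicate number as a term (common dispersion 0.017, against 0.076 without that term). It therefore does not show how the main fit handles the spread of these data. Since no label says that replicates were separate animals, p-values cover the spread between libraries, which may be technical.

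Genes, lists and tests were chosen with earlier results of these data known. Beside the 10 genes, the text names the 5 genes nearest H2-Q10, up to 4 genes of smallest p in each list and some fixed pathway genes. Positions, transcripts and lengths (the transcript of longest coding sequence) came from GENCODE M21. Promoters came from RefSeq, GRCm38.p6, for all but H2-Q5, H2-K2 and H2-T24. Alignments used Biopython 1.88 and figures matplotlib 3.10.9.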

Additional observations from a re-analysis of the deposited data

How the results depend on the processing

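With 2 libraries a group, 1 library decides many values. Of the alternative values of the 9 genes other than H2-Q10, 117 kept their sign and 9 had the other. Leaving out 1 library at a time gave log2 fold changes from -1.99 to -1.20 for H2-Q10, -0.75 to 0.22 for H2-D1, -0.48 to 0.095 for H2-T23, -0.70 to 0.054 for H2-T24 and -0.88 to 0.0017 for B2m. Sums ranged from -0.75 to 0.22 (H2-D1 with H2-L), -0.39 to 0.034 (H2-T rows) and -0.29 to 0.056 (all class I and Ib). Other rows ranged from -0.79 to 0.51 (H2-L), -0.12 to 0.13 (H2-T10), -0.46 to 0.32 (H2-T22), -1.98 to 0.031 (Gm11127), -0.65 to 2.82 (Ulbp1), -0.51 to 2.16 (H60b), -0.52 to 0.0038 (Tapbp), -0.75 to 0.17 (Psmb9), -0.82 to 0.04 (Psme1), -0.31 to 0.78 (H2-DMa), -2.70 to 3.70 (Cd74) and -0.63 to 0.065 (Cd8b1). Calls ranged from 0 to 1 for the 9 genes and for receptors, 0 to 2 for class I-like genes, peptide supply and class I transcription, and 0 to 3 for class II.

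Removing length trends gave 0.037 for H2-K1, 0.0095 for H2-M3 and 0.196 for H2-T10, and with the replicate block 0.038, 0.010 and 0.197, with 0.00093 for H2-T23. H2-T10 lay near 0 otherwise: 0.0030 with DESeq2 size factors, 0.0035 with the CPM filter, 0.0031 in DESeq2, 0.0049 in limma-voom and 0.0035 with the replicate block. The cause was not tested.

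The groups share replicate numbers, but no label says that a number marks a shared batch. Deviations from the group means correlated across 11271 genes (r = 0.71, 2 pairs), a hint from the data and not the design. With the replicate block edgeR called 786 of 11271 genes higher and 420 lower, against 0, and without SPF replicate 2 it called 783 and 544. DESeq2 and the exact test each called 8 and 1, and without SPF replicate 1 the calls were 15 and 2. The block with length trends removed called 70 and 17. Under the block, 1 of the 9 genes was called higher (H2-Q5, 0.90, adjusted p = 0.0074) and 1 lower (H2-K2, -0.61, adjusted p = 0.020), with 2 peptide supply, 2 class I transcription, 1 class II and 1 receptor gene. With length trends also removed, 0 of the 9 were called (adjusted p = 0.073 for H2-Q5 and 0.11 for H2-K2).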
